A study of Mus musculus with 6 samples.

Results

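Matrix metalloproteinases (MMP), the disintegrin and metalloproteinases with thrombospondin repeats (ADAMTS), the ADAMTS-like proteins (ADAMTSL) and the tissue inhibitors of metalloproteinases (TIMP) were measured by RNA-seq in embryonic mouse skin with and without knockout of the endothelial receptor gene Tie1. Members were the genes whose symbols carry these family names and a number (Mmp, Adamts, Adamtsl1 to Adamtsl5, Timp1 to Timp4), which gave 50 of the 19131 genes in the deposited tables: 22 MMP, 19 ADAMTS, 5 ADAMTSL and 4 TIMP genes. Of these, 43 had 10 or more reads in 3 or more libraries, and all 43 reached 10 reads in all 6 libraries, so none was kept through 1 group alone. The other 7 were all MMP genes.

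The samples were whole skin at embryonic day 17.5 on the C57BL/6N background, from 3 libraries of Tie1 knockout skin and 3 libraries of Tie1 control skin. Their titles name the groups Tie1ECDKO and Tie1ECDWT, and the ECD part is not explained. The labels do not say in which cells or by which Cre or allele Tie1 was deleted, from which body site the skin came, or whether each library is its own embryo, so the p-values measure only the spread between these samples, which may be technical. The libraries held 19826856 to 20591164 estimated reads. Tie1 had 84, 53 and 46 reads in the knockout libraries, against 1187, 1023 and 1215 in the control libraries, which fits all 6 labels. Krt5 of the epidermis stood at 2949 to 4232 CPM (reads scaled to library size with TMM factors) in knockout and 2535 to 4519 CPM in control skin, and the dermal collagen gene Col1a1 at 13702 to 16825 CPM in the knockout and 13049 to 15949 CPM in control skin, so the defining transcripts of skin were present in all libraries. In bulk tissue, fewer cells of a type and less RNA per cell cannot be told apart.

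MMPs are zinc-dependent proteases that cut collagens, other matrix proteins and growth factor carriers. They are made as inactive precursors and are held in check by TIMPs, and the membrane-bound MMP14 activates the precursor of MMP2 together with TIMP2. ADAMTS proteases are secreted and cut proteoglycans such as versican, trim procollagens, process fibrillin microfibrils or cut von Willebrand factor, while ADAMTS-like proteins share their binding domains but have no protease domain. In developing skin these enzymes take part in dermal remodeling, hair follicle growth and the passage of sprouting vessels through matrix.

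No member was called changed. Of the 43 tested members, 0 passed edgeR's quasi-likelihood test at an adjusted p under 0.05, where 0.16% of all 15035 genes tested passed. DESeq2, which called 1.24% of its genes, and limma-voom, which called 0.0998%, also called 0 members. An unadjusted p under 0.05 was reached by 4 members, 3 higher and 1 lower in the knockout, against 7.42% of all genes tested (4.08% higher and 3.35% lower). DESeq2 and limma-voom gave the same number. The same 4 were the tested members whose 3 knockout libraries lay wholly above or below the 3 control libraries, a separation found for 13.8% of all genes (7.03% higher and 6.78% lower). The median log2 fold change of the tested members was −0.052, with 18 above and 25 below 0, against a median of 0.0038 over all genes tested. The median size of the change, either way, was 0.14 on the log2 scale for members and 0.097 for all genes. The 95% interval of the change lay within 1.5-fold of no change for 22 of the 43 members (70.0% of all genes) and within 2-fold for 36 of them (86.7% of all genes). The remaining 7 members had intervals that reached beyond 2-fold, so a change of that size was not excluded for them.

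**Figure D1:**
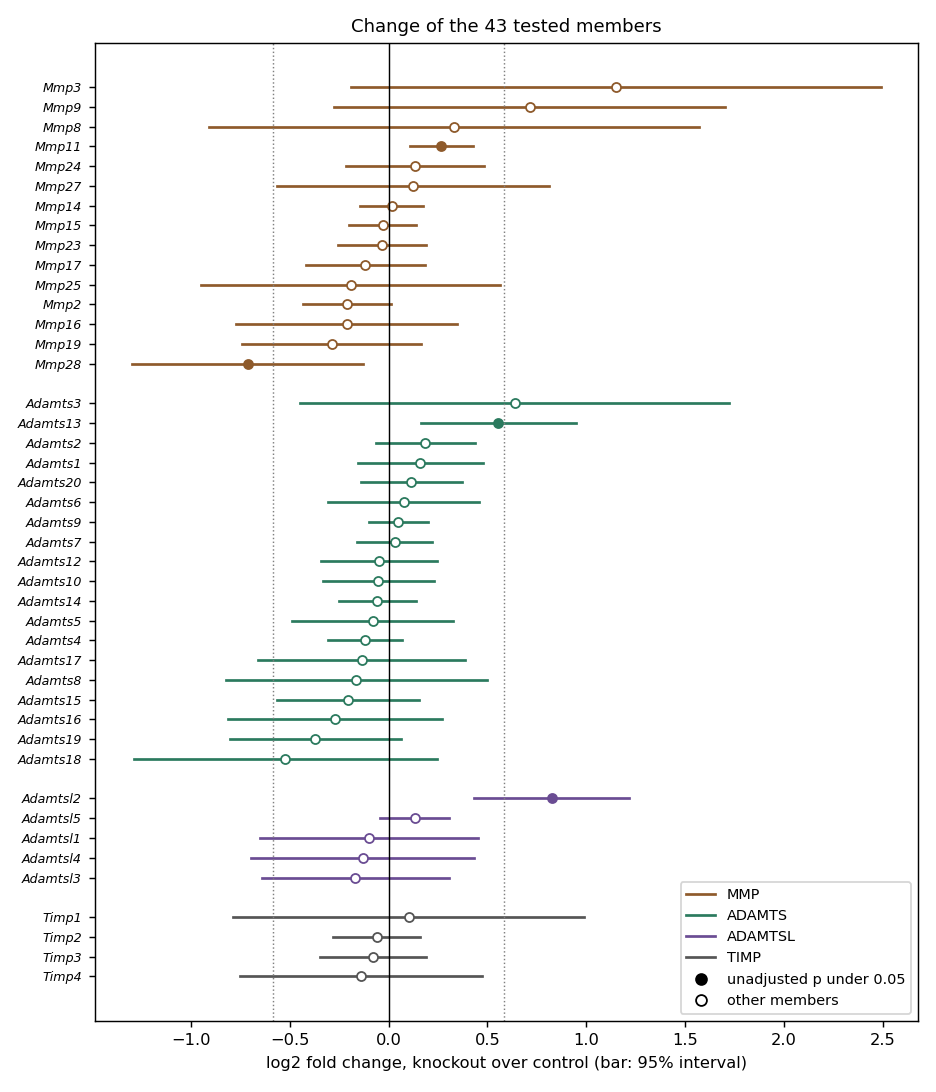
Log2 fold change of each tested member, knockout over control, with its 95% interval, grouped by family; dotted lines mark 1.5-fold, filled points an unadjusted p under 0.05. The 4 filled points are Adamtsl2, Adamts13 and Mmp11 to the right and Mmp28 to the left of 0, and the widest intervals belong to low-count genes such as Mmp3 and Adamts3.

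Skin carried a small set of abundant members. Per kilobase of the longest annotated transcript, the mean level of Mmp14, the membrane-type activator, was 114 CPM in the knockout and 112 CPM in control skin. Timp2 followed at 78.3 CPM per kilobase in knockout and 81.7 in control skin, Mmp2, the gelatinase that cuts basement membrane collagen, at 69.5 in knockout and 80.4 in control skin, and Timp3, an inhibitor that binds to matrix, at 35.3 in knockout and 37.3 in control skin. The genes of the MMP14, TIMP2 and MMP2 activation complex were thus the 3 most abundant members on this scale. At the other end, Mmp7, Mmp1b, Mmp20, Mmp21, Mmp10 and Mmp12 each stayed at or below 0.108 CPM per kilobase in both groups. Mmp14 and Mmp2 made up 48.3% and 28.1% of the MMP family's CPM in knockout skin, against 45.8% and 31.1% in control skin, and Timp2 made up 62.4% of the TIMP family's CPM in the knockout and 62.2% in control skin.

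**Figure D2:**
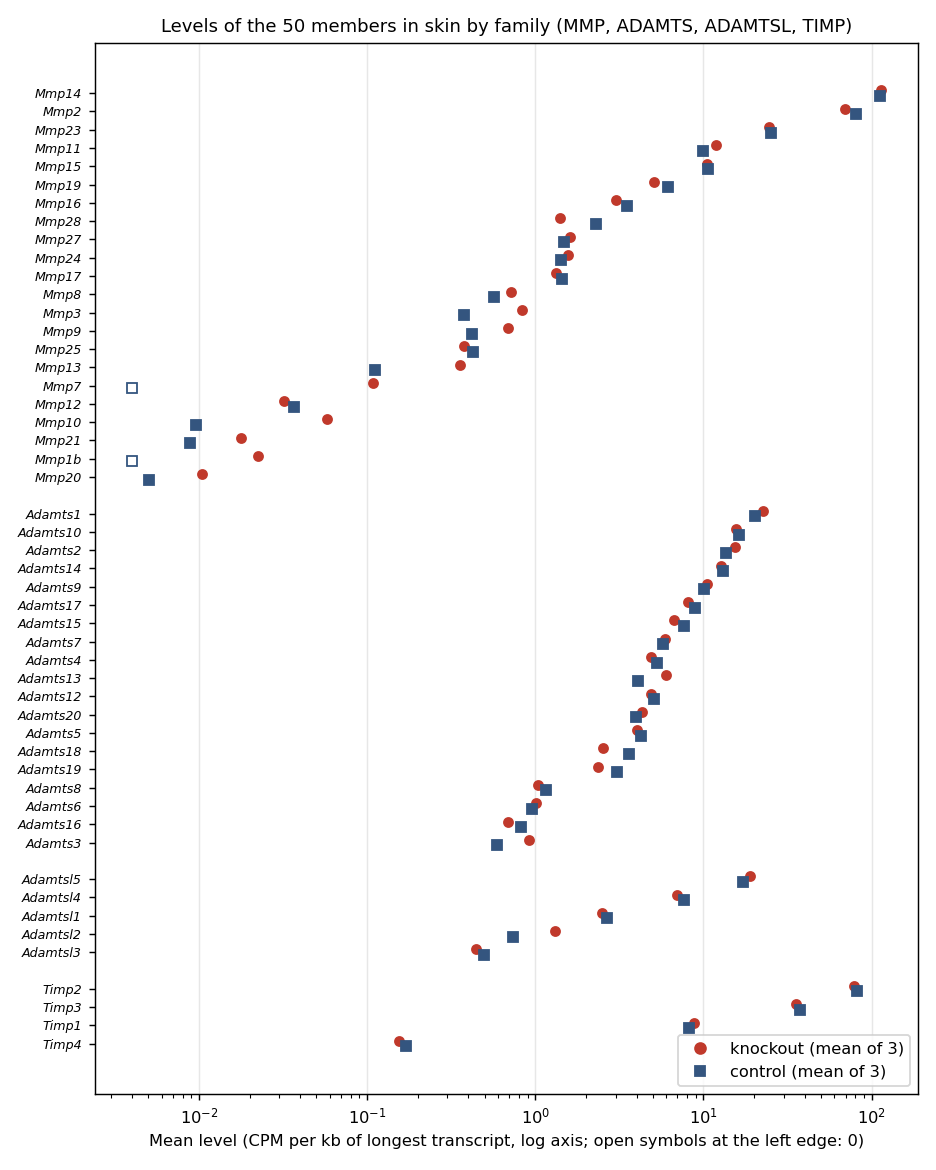
Mean level of each of the 50 members in CPM per kilobase of its longest transcript (log axis), knockout as circles and control as squares, by family. Levels run from 114 CPM per kilobase for Mmp14 in knockout skin to 0 for Mmp7 and Mmp1b in control skin (open symbols at the left edge), and the 2 symbols of most genes nearly coincide.

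The summed level of each family overlapped between the groups. The MMP sum was 731, 769 and 785 CPM in knockout libraries, against 844, 739 and 803 CPM in control libraries, and the ADAMTS sum was 747, 777 and 771 CPM in knockout, against 754, 731 and 784 CPM in control libraries. The ADAMTSL sum was 97.0, 100.3 and 80.9 CPM in knockout, against 100.8, 74.1 and 100.6 CPM in control libraries. The TIMP sum was 461, 464 and 472 CPM in knockout, against 526, 443 and 493 CPM in control libraries. Control 1 held the highest MMP and TIMP sums of the 6 libraries. These sums were not tested.

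Among the abundant MMP genes, Mmp14 stood at 347, 374 and 382 CPM in knockout, against 366, 351 and 375 CPM in control libraries. Its log2 fold change was 0.016 (SE 0.068, adjusted p = 0.972 by edgeR) with a 95% interval of −0.14 to 0.18, and −0.015 with upper-quartile scaling. Mmp2 stood at 213, 209 and 220 CPM in knockout, against 273, 214 and 255 CPM in control libraries. Its log2 fold change was −0.21 (SE 0.095, adjusted p = 0.685 by edgeR, 95% interval −0.43 to 0.014), and knockout 3 lay above control 2. Mmp15, a second transmembrane MMP, stood at 50.4, 54.5 and 55.7 CPM in knockout, against 57.7, 51.9 and 54.4 CPM in control libraries (log2 fold change −0.030, SE 0.072, adjusted p = 0.944 by edgeR). For all 3 genes the interval excluded a 1.5-fold change in either direction.

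Mmp11 and Mmp28 were the MMP genes with an unadjusted p under 0.05. Mmp11 (stromelysin-3, known from stromal fibroblasts; chromosome 10, 75923221 to 75932502, GRCm38.p6) stood at 27.0, 27.9 and 27.0 CPM in knockout, against 22.8, 22.5 and 22.8 CPM in control libraries. The libraries of each group were close to each other and the groups did not overlap, with a log2 fold change of 0.27 (SE 0.068, unadjusted p = 0.00530, adjusted p = 0.328 by edgeR, 95% interval 0.11 to 0.43). The value was 0.24 to 0.28 in every alternative fit. Mmp28 (epilysin, an MMP of keratinocytes; chromosome 11, 83440768 to 83463040) stood at 4.85, 5.40 and 4.12 CPM in knockout, against 10.95, 6.39 and 6.22 CPM in control libraries. Its log2 fold change was −0.71 (SE 0.25, unadjusted p = 0.0234, adjusted p = 0.544 by edgeR). Control 1 was the high library: without it the log2 fold change was −0.40.

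**Figure D3:**
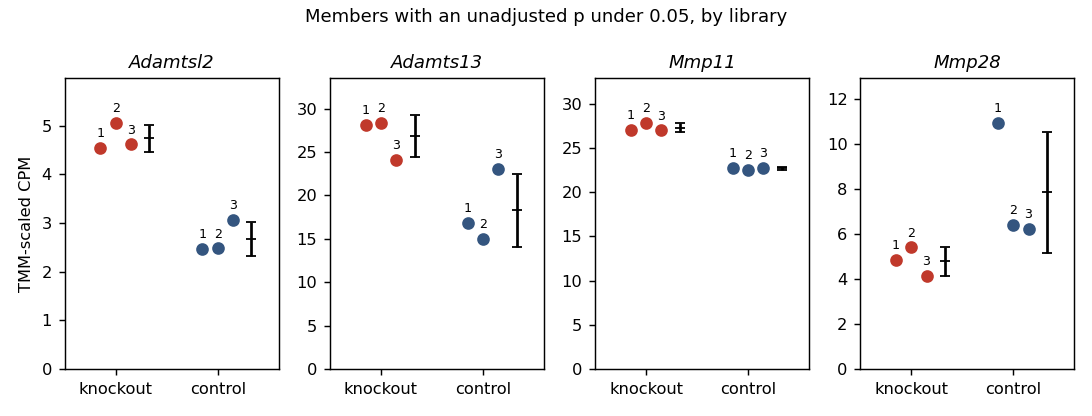
TMM-scaled CPM of the 4 members with an unadjusted p under 0.05 in each library (numbers are replicates), with mean and SD beside the points. All 3 knockout libraries lie above all 3 control libraries for Adamtsl2, Adamts13 and Mmp11 and below them for Mmp28, where control 1 stands apart at 10.95 CPM; none passed adjustment.

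On chromosome 9, 9 of the MMP genes lie side by side in 427.1 kb (7272514 to 7699585, GRCm38.p6), and no other gene of the tables lies among them. They include the collagenases Mmp13, Mmp8 and Mmp1b, the stromelysins Mmp3 and Mmp10, the elastase Mmp12, the matrilysin Mmp7, the enamel protease Mmp20, and Mmp27. This neighbourhood was nearly silent: 6 of the 7 members that missed the read minimum lie here, the other being Mmp21 on chromosome 7. The start regions of these genes are shown because several of the genes are known to answer to the transcription factor AP-1. Its usual site is TGACTCA or TGAGTCA, and the looser form TGANTCA (the same on both strands) was searched. The 100 bases before the first annotated start were taken from RefSeq for Mmp13 (chr9:7272414-7272513, plus strand), Mmp3 (chr9:7445722-7445821, plus), Mmp10 (chr9:7502242-7502341, plus), Mmp7 (chr9:7691990-7692089, plus), Mmp8 (chr9:7558329-7558428, plus) and Mmp27 (chr9:7571296-7571395, plus), with any TGANTCA in capitals:
Mmp13: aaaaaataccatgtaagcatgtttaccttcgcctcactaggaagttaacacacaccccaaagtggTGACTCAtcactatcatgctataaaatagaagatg
Mmp3: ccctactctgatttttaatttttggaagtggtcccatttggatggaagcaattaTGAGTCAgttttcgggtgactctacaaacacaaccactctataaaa
Mmp10: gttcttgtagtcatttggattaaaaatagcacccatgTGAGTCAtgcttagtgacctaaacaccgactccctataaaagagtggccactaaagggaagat
Mmp7: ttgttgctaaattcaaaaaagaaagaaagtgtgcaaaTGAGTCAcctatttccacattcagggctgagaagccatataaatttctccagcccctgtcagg
Mmp8: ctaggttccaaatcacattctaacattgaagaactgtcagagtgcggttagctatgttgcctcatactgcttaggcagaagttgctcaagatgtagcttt
Mmp27: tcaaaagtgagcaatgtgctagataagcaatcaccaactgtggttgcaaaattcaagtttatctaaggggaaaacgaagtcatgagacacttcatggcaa

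The motif began 35 bases before the start of Mmp13, 46 before that of Mmp3, and 63 before those of Mmp10 and Mmp7. In windows of 250 bases before each listed start it was present in 7 of the 9 cluster genes, in Mmp12 at a second listed start only, and in 0 of the 26 other members that had a window. Over all genes with a window the share was 7.82%. The Mmp20 match read TGAATCA, which is not a usual AP-1 site. Mmp8 and Mmp27 had no TGANTCA match, which says nothing about binding.

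Within the cluster, Mmp3 had 10.65, 22.95 and 56.79 reads in knockout, against 15, 12 and 14 reads in control libraries. Mmp13, which cuts fibrillar collagen, had 2, 5 and 51 reads in knockout, against 3, 7 and 8 reads in control libraries, and Mmp8 had 16, 26 and 63 reads in knockout, against 40, 25 and 19 reads in control libraries. Outside the cluster, the gelatinase gene Mmp9 (chromosome 2) showed 28, 34 and 70 reads in knockout, against 39, 19 and 23 reads in control libraries. For all 4 genes knockout 3 was the highest of the 6 libraries, while knockout 1 lay below or among the control libraries. Mmp27 did not share this, with 54, 80 and 48.84 reads in knockout, against 67, 65 and 38 reads in control libraries, so the high values of knockout 3 were not found for all genes of the neighbourhood. Mmp10 and Mmp3 are close copies between which reads were divided: their sums were 12, 24 and 61 in knockout, against 15, 13 and 14 in control libraries, all whole numbers although the knockout values of Mmp3 alone were not. Mmp12 had 1, 3 and 3 reads in knockout, against 0, 3 and 5 reads in control libraries, and Mmp1b and Mmp20 had at most 2 reads in any library.

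**Figure D4:**
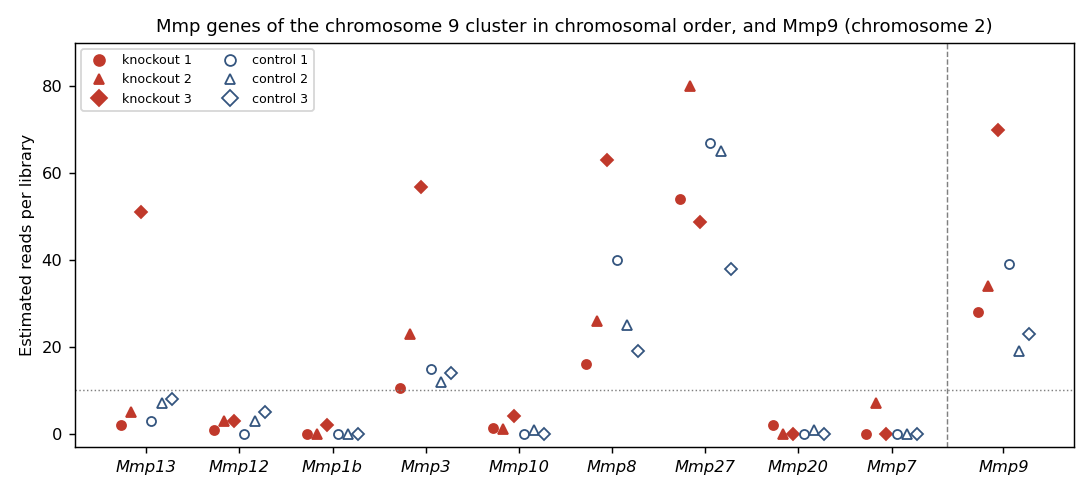
Estimated reads per library for the 9 chromosome 9 Mmp genes in chromosomal order and, right of the dashed line, for Mmp9; filled symbols are knockout and open symbols control libraries, and the dotted line marks 10 reads. Knockout 3 (filled diamonds) is the highest library for Mmp13, Mmp3, Mmp8 and Mmp9, at 51, 56.79, 63 and 70 reads, but not for Mmp27.

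Mmp3, Mmp8 and Mmp9, named here after their values were seen, had log2 fold changes of 1.15 (SE 0.57), 0.33 (SE 0.52) and 0.71 (SE 0.42), at adjusted p = 0.706, 0.913 and 0.747 by edgeR. Without knockout 3 they stood at 0.34, −0.38 and 0.23. Of the 9 neutrophil markers, S100a8 and S100a9 were also highest in knockout 3, and the others were not. S100a9 stood at 0.876, 1.93 and 12.8 CPM in knockout, against 3.16, 1.68 and 1.53 CPM in control libraries. Ngp stood lower in the knockout, at 0.258, 0.297 and 0.687 CPM in knockout, against 2.61, 0.743 and 1.04 CPM in control libraries (log2 fold change −1.80, SE 0.61, adjusted p = 0.536 by edgeR). Camp was at or under 0.245 CPM in the knockout and at or above 0.296 CPM in the control libraries, while Ltf and Cxcr2 overlapped between the groups. The summed level of all 9 markers, most of whose excess in knockout 3 came from S100a8 and S100a9, was 8.45, 10.3 and 24.9 CPM in knockout, against 14.8, 11.3 and 10.3 CPM in control libraries. The neutrophil markers Ly6g, Mpo and Elane stayed at or under 0.0496 CPM in the knockout and at or under 0.247 CPM in the control libraries. The knockout values were less than the 3 reads (0.147 to 0.155 CPM) taken as the floor of detection. Of 6 markers of osteoclasts, cells known to make MMP9, only 2 had enough reads to be tested. The summed level of the 6, which rests on few genes, was 70.2, 62.1 and 63.2 CPM in knockout libraries. In control libraries it was 66.0, 55.5 and 54.2 CPM. The part of neutrophils or osteoclasts in the high values of knockout 3 was not tested.

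The remaining MMP genes are membrane-type or of more specialised use. Mmp16 and Mmp24, both transmembrane, stood at 18.0, 14.8 and 12.8 CPM and at 6.29, 7.83 and 5.99 CPM in knockout, against 23.8, 15.5 and 13.5 CPM and 6.51, 5.99 and 5.83 CPM in control libraries. The lipid-anchored Mmp17 and Mmp25 averaged 8.55 ± 0.647 and 1.70 ± 0.585 CPM in knockout, against 9.27 ± 1.03 and 1.94 ± 0.466 CPM in control skin (means ± SD, n = 3 each). Mmp19 averaged 17.2 ± 4.11 CPM in the knockout and 20.98 ± 2.63 CPM in control skin, and Mmp23 35.3 ± 2.32 CPM in the knockout and 36.2 ± 3.63 CPM in the control (mean ± SD, n = 3 each). The groups overlapped for all 6 genes. Mmp7 had 7 reads in knockout 2 and 0 in the other 5 libraries.

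The ADAMTS family was measured in full, with all 19 genes above the read minimum. Those that cut large proteoglycans had 7 tested members, of which 0 were called and 0 had an unadjusted p under 0.05, with a median log2 fold change of −0.081. Adamts1, which cuts versican, stood at 99.8, 109 and 122 CPM in knockout, against 82.0, 99.2 and 115 CPM in control libraries (log2 fold change 0.16, SE 0.13, adjusted p = 0.824 by edgeR). Adamts9, also a versican protease, stood at 87.9, 81.4 and 82.5 CPM in knockout, against 82.0, 84.3 and 77.2 CPM in control libraries. Its log2 fold change of 0.049 (SE 0.064, adjusted p = 0.890 by edgeR) had an interval of −0.10 to 0.20. Adamts4, Adamts5, Adamts15 and Adamts20 averaged 21.3 ± 0.590, 43.3 ± 2.95, 39.6 ± 5.84 and 29.6 ± 2.06 CPM in knockout, against 23.2 ± 1.37, 45.8 ± 11.2, 45.6 ± 7.57 and 27.4 ± 3.38 CPM in control skin (means ± SD, n = 3 each), with overlap between the groups for each.

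Of the procollagen N-propeptidases, which trim the amino end of fibrillar procollagens, Adamts2 was the most abundant. It stood at 106, 117 and 112 CPM in knockout, against 115, 92.1 and 87.7 CPM in control libraries (log2 fold change 0.19, SE 0.11, adjusted p = 0.742 by edgeR). Control 1 lay inside the knockout range, and without control 1 and knockout 1 together the log2 fold change was 0.35 (adjusted p = 0.0582 by edgeR). With the posterior Hox score (mean log2 CPM of 8 posterior Hox genes) as a covariate it was −0.0099 (adjusted p = 0.977 by edgeR). That score was 4.02, 4.26 and 4.22 in knockout, against 4.21, 3.57 and 3.19 in control libraries. It thus went partly with genotype, and a fit with this covariate cannot fully separate them. Adamts14 averaged 65.5 ± 6.67 CPM in the knockout and 68.1 ± 1.58 CPM in the control (mean ± SD, n = 3 each). Adamts3, which also activates the lymphatic growth factor VEGF-C, had 121, 58 and 36 reads in knockout, against 57, 39 and 45 reads in control libraries. Knockout 1 was high and knockout 3 the lowest of all, so the groups overlapped in both directions. Of the other ADAMTS genes, Adamts10, a fibrillin-binding member, averaged 63.1 ± 8.67 CPM in the knockout and 65.4 ± 6.55 CPM in the control, and Adamts12 and Adamts7, which both cut cartilage oligomeric matrix protein, averaged 41.9 ± 3.18 and 31.8 ± 2.63 CPM in knockout, against 43.4 ± 7.28 and 31.1 ± 0.614 CPM in control skin (mean ± SD, n = 3 each). Adamts19 averaged 12.1 ± 2.71 CPM in the knockout and 15.7 ± 2.32 CPM in the control (mean ± SD, n = 3 each). Adamts6, Adamts8 and Adamts16 averaged 6.57, 3.75 and 3.41 CPM in knockout, against 6.23, 4.20 and 4.12 CPM in control skin. Of these, Adamts8 was counted above among the genes that cut large proteoglycans. The groups overlapped for all 7 genes.

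ADAMTS13, the protease that cuts von Willebrand factor, is encoded on chromosome 2 (26973361 to 27009625, GRCm38.p6). Adamts13 stood at 28.1, 28.4 and 24.0 CPM in knockout, against 16.8, 14.96 and 23.1 CPM in control libraries. The groups did not overlap, though knockout 3 and control 3 lay close together. The log2 fold change was 0.55 (SE 0.17, unadjusted p = 0.0121, adjusted p = 0.447 by edgeR, 95% interval 0.16 to 0.95), and 0.42 without control 2. Vwf, the gene of its substrate, fell, with 12.99, 15.8 and 17.1 CPM in knockout, against 33.5, 33.7 and 39.0 CPM in control libraries (log2 fold change −1.21, SE 0.12, adjusted p = 0.0247 by edgeR). The Vwf call was lost when any 1 library other than knockout 1 was left out, at adjusted p = 0.0582 to 0.203 by edgeR. It was also lost with the posterior Hox score as a covariate (adjusted p = 0.107 by edgeR), a score that went partly with genotype.

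ADAMTSL2 binds fibrillin-1 and the latent TGF-beta carrier LTBP1, and its loss causes geleophysic dysplasia in humans. Adamtsl2 lies 69.7 kb from Adamts13 on the same chromosome (27079336 to 27108981). It had the smallest p of all members: 4.54, 5.06 and 4.61 CPM in knockout, against 2.47, 2.48 and 3.06 CPM in control libraries. Every knockout library was well above every control library, and the log2 fold change was 0.83 (SE 0.17, unadjusted p = 0.00147, adjusted p = 0.176 by edgeR, 95% interval 0.43 to 1.22), a 1.77-fold difference. It rested on 88, 102 and 94 reads in knockout, against 50, 50 and 62 reads in control libraries. Across the alternative fits the value ran from 0.77 to 0.95 and the adjusted p from 0.0587 (DESeq2) to 0.671, never under the threshold.

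The 3 genes between Adamts13 and Adamtsl2, looked up after these values were seen, were Cacfd1, Slc2a6 and Mymk. Cacfd1 averaged 33.5 ± 1.58 CPM in the knockout and 34.6 ± 1.70 CPM in control skin, and Mymk, the myoblast fusion factor, 46.9 ± 4.46 CPM in the knockout and 42.3 ± 7.30 CPM in the control (mean ± SD, n = 3 each). Slc2a6 stood at or under 0.883 CPM in the knockout and at or under 1.23 CPM in the control libraries. The groups overlapped for all 3.

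The other 4 ADAMTS-like genes overlapped between the groups. Adamtsl5, another fibrillin-binding member, stood at 37.5, 38.3 and 34.8 CPM in knockout, against 33.9, 31.8 and 35.1 CPM in control libraries (log2 fold change 0.13, SE 0.074, adjusted p = 0.732 by edgeR). Adamtsl4, a gene of lens zonule fibres, stood at 28.3, 34.1 and 22.4 CPM in knockout, against 37.6, 21.9 and 33.2 CPM in control libraries (log2 fold change −0.13, SE 0.23, adjusted p = 0.924 by edgeR). Adamtsl1 and Adamtsl3 averaged 19.6 ± 3.29 and 3.21 ± 0.611 CPM in knockout, against 21.01 ± 5.81 and 3.61 ± 0.452 CPM in control skin (means ± SD, n = 3 each).

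None of the 4 TIMP genes was called or separated. Timp2 stood at 305, 287 and 280 CPM in knockout, against 343, 278 and 287 CPM in control libraries (log2 fold change −0.060, SE 0.094, adjusted p = 0.908 by edgeR, 95% interval −0.28 to 0.16). Timp3 stood at 146, 170 and 184 CPM in knockout, against 169, 160 and 199 CPM in control libraries (log2 fold change −0.079, SE 0.11, adjusted p = 0.903 by edgeR). Both intervals excluded a 1.5-fold change. Timp1, which is induced by growth and injury signals, stood at 9.12, 6.54 and 7.61 CPM in knockout, against 11.8, 4.70 and 5.18 CPM in control libraries, with control 1 the highest. Timp4 had 16 to 18 reads in the knockout and 16 to 22 in the control libraries. All 4 TIMP genes overlap another gene of the tables (Timp1 with Syn1, Timp2 with Cep295nl, Timp3 with Syn3, Timp4 with Syn2), as do Mmp19, Mmp23, Mmp25, Mmp28 and Adamts4. The sources used here do not say whether counting used strand, so the reads of such pairs are uncertain.

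Libraries of the same group also differed from each other. The mean log2 CPM of 15 hair follicle markers was 2.63, 4.17 and 4.57 in knockout, against 2.87, 4.24 and 4.93 in control libraries, so knockout 1 and control 1 were the low libraries of their groups. Adamts18, a protease of epithelial buds, stood at 9.18, 16.0 and 17.4 CPM in knockout, against 13.6, 20.999 and 26.5 CPM in control libraries. Adamts17, which acts in fibrillin-rich matrix, stood at 40.4, 56.6 and 59.6 CPM in knockout, against 42.0, 63.5 and 66.5 CPM in control libraries. For both genes knockout 1 and control 1 were the lowest libraries of their groups, as they were for Adamts1, Adamts15 and Adamtsl2, 5 of 43 members (11.6%), a smaller share than among all genes tested (19.3%). Another 9 members (20.9%, against 17.4% of all genes) were highest in both, among them Mmp16, Adamts5, Adamts19 and Timp2. Control 1 alone was the highest control library for 27 of the 43 members, against 37.5% of all genes tested. With the hair follicle score as a covariate 0 members were called and 10 had an unadjusted p under 0.05. Adamts18 then stood at −0.42 on the log2 scale (SE 0.084, adjusted p = 0.0958 by edgeR), and at −0.52 (SE 0.32, adjusted p = 0.757 by edgeR) without the covariate, a value of −0.29 when knockout 1 or control 3 was left out. Other fits went the other way. Its unadjusted p by edgeR was under 0.05 with the replicate block, without control 1, and without knockout 1 and control 1 together.

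**Figure D5:**
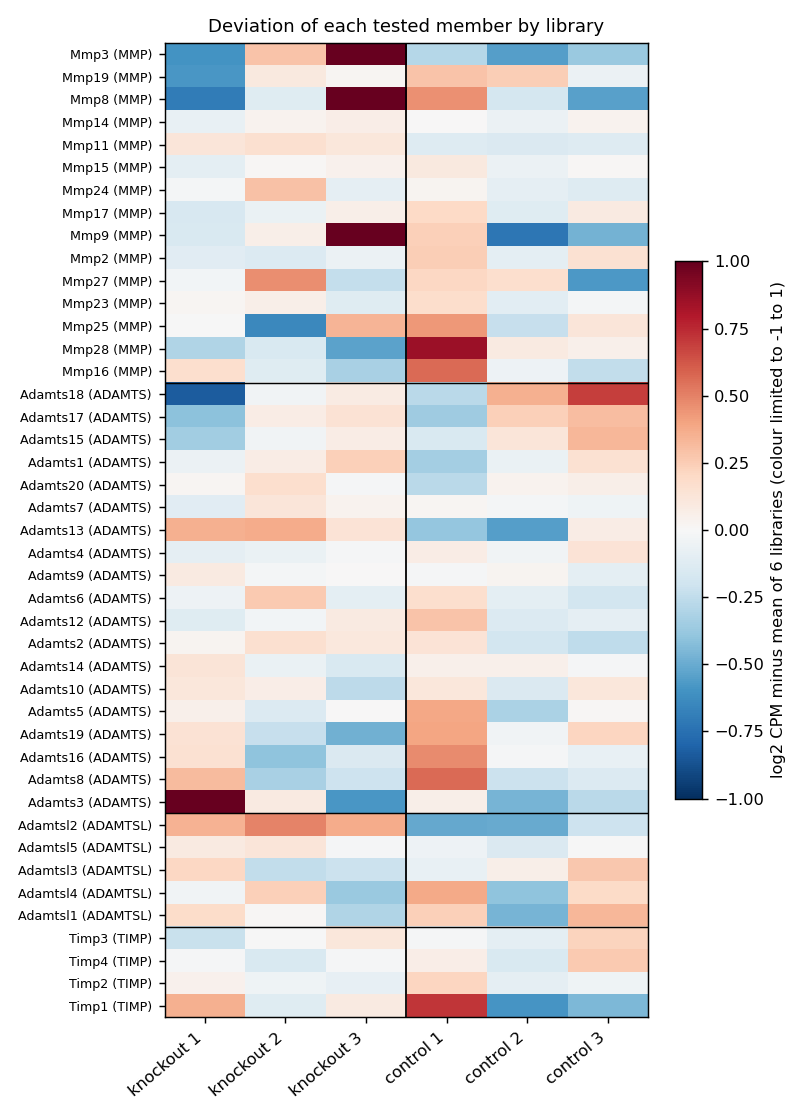
Log2 CPM of each tested member minus its mean over the 6 libraries (red higher, blue lower, colour limited to −1 to 1), knockout libraries left of the line and control libraries right of it. Adamts18, Adamts17 and Adamts15 are blue in both knockout 1 and control 1, Mmp3, Mmp8 and Mmp9 are darkest red in knockout 3, and Adamtsl2 is red in all 3 knockout and blue in all 3 control libraries.

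Partners of these enzymes were examined in 10 lists of 79 genes, of which 73 were tested. None was called by edgeR or limma-voom, and DESeq2 called 7 of the 73, where it called 1.24% of all its genes. An unadjusted p under 0.05 was reached by 14 of the 73 (11 higher, 3 lower), where 7.42% of all genes tested reached it (4.08% higher, 3.35% lower). The median log2 fold change over the 73 genes was 0.065. These lists were chosen with earlier results of these data known. Shares above those of all genes, here and in the single lists below, are therefore no evidence of a change in the partners. Of 10 genes of MMP activation and inhibition outside the TIMPs, 0 had an unadjusted p under 0.05, Reck, the membrane-anchored MMP inhibitor, averaging 96.4 ± 10.9 CPM in the knockout and 93.5 ± 8.83 CPM in control skin. Furin, the convertase that activates membrane-type MMPs, stood at 0.14 on the log2 scale (SE 0.068, adjusted p = 0.688 by edgeR). Among 9 ADAM sheddase genes, the 1 with an unadjusted p under 0.05 was Adam8, with 12.3, 13.6 and 16.3 CPM in knockout, against 7.05, 8.02 and 9.33 CPM in control libraries (log2 fold change 0.79, SE 0.15, adjusted p = 0.156 by edgeR). DESeq2 called it.

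Matrix genes that these proteases act on or bind gave a mixed picture. Of 15 microfibril and elastic fibre genes edgeR and limma-voom called 0 and DESeq2 2, with a median log2 fold change of −0.024. Ltbp2, which binds fibrillin, stood at 74.9, 66.8 and 66.0 CPM in knockout, against 42.6, 41.8 and 53.6 CPM in control libraries (log2 fold change 0.59, SE 0.11, adjusted p = 0.153 by edgeR). Efemp1 (fibulin-3) stood at 55.9, 39.9 and 42.3 CPM in knockout, against 101.0, 69.1 and 79.7 CPM in control libraries (log2 fold change −0.86, SE 0.18, adjusted p = 0.227 by edgeR). These were the 2 that DESeq2 called, and neither pair of groups overlapped. A list around versican and related proteoglycans had 7 tested genes (Vcan, Acan, Hapln1, Hapln3, Has2, Fbln1 and Cd44). Of these edgeR and limma-voom called 0 and DESeq2 called 1, Hapln1. Has2 stood lower in the knockout, at −0.37 on the log2 scale (SE 0.14, adjusted p = 0.597 by edgeR), with overlap between the groups. Hapln1, the link protein that joins versican to hyaluronan, stood at 32.7, 28.1 and 31.4 CPM in knockout, against 23.3, 20.2 and 17.5 CPM in control libraries (log2 fold change 0.60, SE 0.12, adjusted p = 0.171 by edgeR), while Vcan itself averaged 384 ± 84.2 CPM in the knockout and 411 ± 35.5 CPM in the control (mean ± SD, n = 3 each). The 5 procollagen chain genes all had intervals within 1.5-fold of no change. Of 5 procollagen C-proteinase genes the 1 with an unadjusted p under 0.05 was Pcolce2, an enhancer of that cleavage, with 0.773, 0.694 and 0.736 CPM in knockout, against 2.07, 1.09 and 2.02 CPM in control libraries (log2 fold change −1.23, SE 0.32, adjusted p = 0.344 by edgeR). Papln and Thsd4, relatives of the ADAMTS-like proteins, had log2 fold changes of 0.23 and 0.27 (SE 0.19 and 0.27), at adjusted p = 0.825 and 0.851 by edgeR.

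A list around VEGF-C held its gene Vegfc, the cofactor gene Ccbe1, the related ligand gene Vegfd and the receptor gene Flt4. All 4 had positive log2 fold changes, with a median of 0.42, but 0 were called by edgeR. Flt4 overlapped between the groups, at 29.0, 25.9 and 36.7 CPM in knockout, against 30.6, 25.7 and 31.5 CPM in control libraries. Vegfc stood at 11.9, 14.4 and 11.97 CPM in knockout, against 8.39, 7.33 and 8.29 CPM in control libraries (log2 fold change 0.67, SE 0.12, adjusted p = 0.147 by edgeR), and DESeq2 called it. Ccbe1, the cofactor with which ADAMTS3 cuts VEGF-C, stood at 12.2, 17.5 and 15.4 CPM in knockout, against 11.8, 11.7 and 11.01 CPM in control libraries (log2 fold change 0.38, SE 0.14, adjusted p = 0.577 by edgeR). Of 10 tested AP-1 and ETS factor genes 9 had positive log2 fold changes (median 0.26), 0 were called by edgeR, and 6 were separated between the groups, each higher in the knockout, where 7.03% of all genes were. Because this list too was chosen with earlier results known, that share is only described. Junb stood at 79.9, 70.7 and 65.5 CPM in knockout, against 46.9, 49.6 and 56.1 CPM in control libraries (log2 fold change 0.50, SE 0.10, adjusted p = 0.168 by edgeR), and Fos at 41.1, 48.5 and 33.5 CPM in knockout, against 24.9, 28.0 and 29.7 CPM in control libraries (log2 fold change 0.58, SE 0.14, adjusted p = 0.312 by edgeR). DESeq2 called both.

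Markers of other cell types were summed beside these values. The summed level of 7 mast cell markers was 1423 to 1450 CPM in the knockout and 2190 to 2908 CPM in control libraries, that of 7 adipocyte markers 352 to 367 CPM in the knockout and 414 to 455 CPM in control libraries, neither overlapping between the groups. Of 6 tested adipocyte markers 5 had negative and 1 a positive log2 fold change, and 1 was called lower (adjusted p = 0.0353 by edgeR). All 6 tested mast cell markers had negative log2 fold changes, and 0 were called by edgeR. That of 8 macrophage markers was 471 to 542 CPM in the knockout and 337 to 472 CPM in control libraries, with overlap. The 10 pan-endothelial markers summed to 709 to 821 CPM in the knockout and 668 to 776 CPM in control libraries, with overlap, but single markers separated in both directions. Pecam1 and Eng stood higher in the knockout, each at 0.27 on the log2 scale (SE 0.082 and 0.066), and Emcn and Kdr lower, at −0.52 and −0.17 (SE 0.097 and 0.075), at adjusted p = 0.447, 0.306, 0.153 and 0.674 by edgeR. Of the 8 mural markers Des was highest, at 505, 580 and 815 CPM in knockout, against 670, 622 and 607 CPM in control. Their sum, in which Des weighs most, was 1296 to 1638 CPM in the knockout and 1301 to 1405 CPM in control libraries, with overlap. Of the 8 mural markers 6 had positive and 2 had negative log2 fold changes. Among them Pdgfrb, the pericyte receptor, rose (164, 152 and 158 CPM in knockout, against 108, 94.7 and 96.1 CPM in control libraries, log2 fold change 0.67, SE 0.072, adjusted p = 0.0330 by edgeR). The Pdgfrb call was lost when any 1 library other than control 1 was left out, at adjusted p = 0.0759 to 0.203 by edgeR. It was also lost with the posterior Hox score (adjusted p = 0.136 by edgeR), which went partly with genotype. Rgs5 stood at 0.41 (SE 0.12, adjusted p = 0.403 by edgeR) and Myh11 of smooth muscle at −0.82 (SE 0.20, adjusted p = 0.317 by edgeR), both without overlap between the groups. The part of these cells in the values of Adamtsl2, Adamts13, Mmp11 and Mmp28 was not tested.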

How the data were processed

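Whole skin from 3 knockout and 3 control samples was measured by RNA-seq after oligo(dT) selection, per the labels' protocols. Each deposited file holds the authors' estimated counts per gene, which were not normalized: 31.0 to 31.9% of a library's genes lie more than 0.001 off a whole number. Tools in the submitters' processing notes are RSEM 1.2.12, Bowtie2 2.2.5 and HISAT2 2.0.4, on GRCm38.p6, with no role stated.

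Counts were rounded, filtered with filterByExpr (minimum count 10), scaled with TMM and tested by edgeR 4.0.16 in R 4.3.3 (quasi-likelihood, robust), genotype being the only term, with Benjamini-Hochberg adjustment over 15035 genes. The SE is the log2 fold change divided by the root of F, and 95% intervals use the test's degrees of freedom. The method was tested on simulated data. Alternatives were limma 3.58.1 (voom), DESeq2 1.42.0, other scalings and filters, a fit that is not robust, a replicate block, hair follicle and posterior Hox scores as covariates, and leaving libraries out. Coordinates and start regions are from RefSeq GRCm38.p6 and transcript lengths from GENCODE M21; all 50 members matched both, and 35 had a listed start region. Counting error limits genes near 3 reads (0.147 to 0.155 CPM).

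Members and lists were chosen with earlier results of these data known. Per library values could be given for every member. Fold changes with SE and adjusted p were given by rule for members with an unadjusted p under 0.05, the 3 most abundant MMP and ADAMTS and 2 most abundant ADAMTSL and TIMP members, Vwf, and up to 3 genes with the smallest p of each list. Mmp3, Mmp8, Mmp9, Adamts18, the single cell type markers and the neighbours of Adamts13 were added after their values were seen. A result from the lists is not reported here.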

Additional observations from a re-analysis of the deposited data

How the results depend on the processing

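No member was called in any of 18 alternative fits. The number of members with an unadjusted p under 0.05 was 4 in the main comparison, 9 with the replicate block, 10 with the hair follicle score, 8 without knockout 1 and control 1, and 4 to 7 with 1 library left out. Adamtsl2 and Mmp11 were among them in every fit. Adamts13 dropped out without knockout 1 and control 1 together. Mmp28 dropped out there too, and also without control 1 alone and without knockout 3 alone. Over all genes 24 were called, against 38 with no filter, 52 with the replicate block, 113 with the hair follicle score, 15 with the posterior Hox score, 139 without knockout 1 and control 1, 207 with DESeq2, 15 with limma-voom, and 1 to 11 with 1 library left out. The cause of these shifts was not tested, except that fits with a library left out use fewer samples.

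Directions that turned belonged to changes that no fit called. With upper-quartile scaling Mmp14 stood at −0.015 on the log2 scale, and with the posterior Hox score Adamts2 stood at −0.0099 and Mmp8 at −0.25. With libraries left out, singly or knockout 1 and control 1 together, log2 fold changes ran from −0.018 to 0.059 for Mmp14, −0.074 to 0.052 for Mmp15, −0.33 to 0.036 for Adamtsl4, −0.13 to 0.039 for Timp2, −0.16 to 0.013 for Timp3, −0.38 to 1.01 for Mmp8, −0.00053 to 0.28 for Plau and −0.045 to 0.45 for Thsd4. The cause was not tested. Mmp3 gave no value with a filter of 1 CPM in 3 libraries.

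Same-numbered libraries deviated from their group means with correlations of 0.41, 0.042 and 0.27, and differently numbered ones with −0.35 to 0.18. The labels do not say that equal numbers pair samples, so the main comparison did not pair them. Whether they are pairs was not tested. The Tie1 call was lost without knockout 2 (adjusted p = 0.0559). Depth limits the cluster genes: 6 of 9 had under 10 reads in most libraries.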
